A study of Danio rerio with 30 samples.

Results

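Creatine kinases move a phosphate group between ATP and creatine, so that cells with sudden energy demands keep a reserve of phosphocreatine. Vertebrates have cytosolic and mitochondrial forms. In mammals the cytosolic muscle form works at the contractile filaments and the cytosolic brain form in brain, retina and other tissues, while the mitochondrial forms, one of them sarcomeric and one found in many tissues, charge creatine beside the respiratory chain. In a larval fish that swims, the muscle forms are among the abundant transcripts of fast muscle.

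The creatine kinase genes described here are ckma and ckmb (cytosolic muscle forms), ckbb (cytosolic brain form), ckmt2a (named after the sarcomeric mitochondrial form) and ckmt1 (named after the mitochondrial form of many tissues). They were taken by symbol from a table of 31846 gene symbols, 5 genes with 20 of its 59876 transcripts. They were chosen with measured values in view, because single ckbb transcripts had differed between treated larvae and controls. The values of ckbb and of its transcripts against the controls are therefore a description with no test.

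Total RNA was sequenced from whole bodies of AB wild-type zebrafish at 120 hours post fertilization. Control larvae had no treatment, and the others were treated with a paraben, MtP (methylparaben), EtP (ethylparaben) or PrP (propylparaben). These are preservatives whose alkyl ester chain lengthens in that order, and each was used at the labels BMD5, BMD5/10 and BMD5/50. Each of the 10 groups had 3 libraries, 30 in all, and the title of the series asks how the compounds differ in developmental neurotoxicity. With concentrations not given in the sources used here, the compounds can be set side by side at matched labels only. Whole larvae mix many cell types, and in such bulk samples fewer cells of a type and less RNA per cell cannot be told apart.

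Total read counts ran from 9711814 to 24468093 per library. Markers of fast muscle, slow muscle, neurons, photoreceptors, liver and epidermis were present in all 30 libraries, whereas of the heart markers myl7, nppa and tnnt2a none had a median above 1.54 CPM (read counts scaled to library size with TMM factors). Libraries numbered 1 stood apart from those numbered 2 and 3. In a model of group and number, 10461 of 18543 genes differed between number 1 and the mean of the others (edgeR quasi-likelihood test, Benjamini-Hochberg adjusted p under 0.05), or 56.4% of genes. The depths overlapped, with totals of 9711814 to 16957948 for number 1 and 10052460 to 24468093 for the others. Within groups, the library numbered 1 had the lowest total in Control, PrP BMD5/50 and every EtP group, and not in the remaining groups. Values are therefore given by library and, where it matters, without the libraries numbered 1.

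The genes differed widely in level. Per transcript length, in deposited TPM summed over transcripts, ckma was highest with a mean of 6345 ± 1423 (SD, n = 30 libraries), followed by ckmb at 5040 ± 1059, ckbb at 1152 ± 285, ckmt2a at 302 ± 124 and ckmt1 at 89.7 ± 14.9. This order held in 30 of 30 libraries. The place of ckmt2a depends on which of its transcripts are summed. Over all libraries the short ckmt2a-203 gave a mean of 166 TPM. The gene-spanning ckmt2a-202 and ckmt2a-204, whose counts are equal, gave 66.5 each and ckmt2a-201 gave 2.63. Each gene-spanning transcript taken singly lay below the mean of ckmt1. The order was not computed with any of these transcripts left out. The TPM ranges of ckma (2572 to 8141) and ckmb (2023 to 6419) overlapped across libraries, but within a library ckma exceeded ckmb by 1.13 to 1.37 times. The ranges of the other neighbours did not overlap, ckbb lying between 746 and 1997, ckmt2a between 161 and 730 and ckmt1 between 65.1 and 118.1. In the Control group alone the TPM means were 6681 ± 940 for ckma, 5341 ± 723 for ckmb, 990 ± 279 for ckbb, 262 ± 56.5 for ckmt2a and 77.1 ± 19.99 for ckmt1 (SD, n = 3). Together the genes are a visible part of the whole transcriptome, ckma alone taking 0.868% of all reads, ckmb 0.690%, ckbb 0.138%, ckmt2a 0.0279% and ckmt1 0.0143%.

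**Figure D1:**
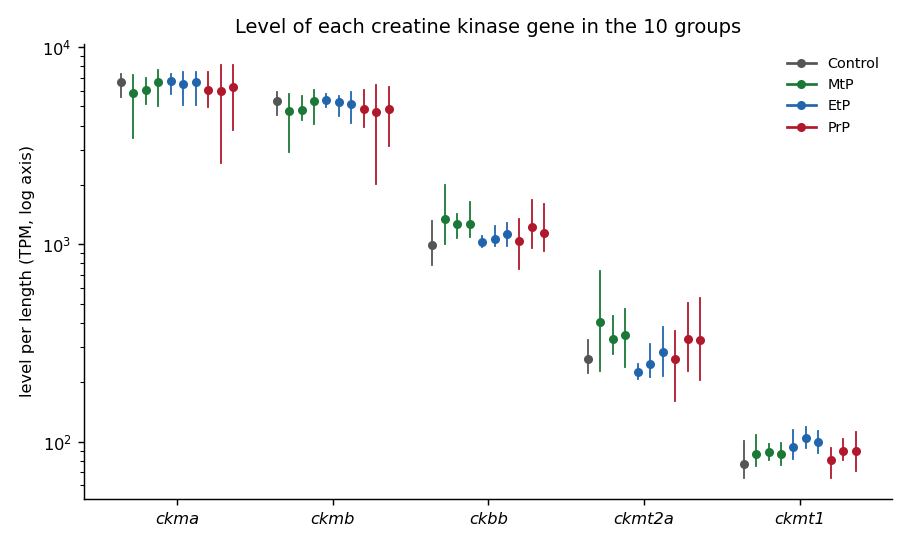
Level of each creatine kinase gene in TPM (log axis). Points are group means of 3 libraries and lines run from the lowest to the highest library, with the labels BMD5, BMD5/10 and BMD5/50 from left to right within a compound. With all transcripts of a gene summed, the order ckma, ckmb, ckbb, ckmt2a, ckmt1 is the same in all 10 groups, and ckma and ckmb lie closest together.

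The muscle forms come first, since they carry most of the reads. In CPM, the Control libraries numbered 1, 2 and 3 held 6441, 10933 and 11696 for ckma. MtP BMD5 had 3789, 9187 and 10557 in the same order. PrP BMD5/10 had 2944, 11109 and 9447, and EtP BMD5 had 6873, 9803 and 9656. In each of these groups the library numbered 1 was the lowest, and the treated values overlapped with those of Control. Over all groups the 10 libraries numbered 1 lay between 2944 and 7045 CPM (median 5994) and the 20 others between 8063 and 11746 (median 10222), with no overlap.

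The log2 fold changes of ckma against Control ran from -0.31 in PrP BMD5/10 to -0.02 in MtP BMD5/50. Their standard errors were 0.43 in this fit, which has no term for the replicate number. No 95% interval left out 0, the lowest end being -1.20 in PrP BMD5/10 and the highest 0.88 in MtP BMD5/50. Without the libraries numbered 1, PrP BMD5/10 stood at -0.14, and the 9 values of ckma ran from -0.35 in MtP BMD5/10 to 0.01 in MtP BMD5/50. For ckmb, a duplicate of the muscle form that fish keep beside ckma, the Control libraries held 5191, 9058 and 8958 CPM. MtP BMD5 held 3062, 7376 and 8605, and PrP BMD5/10 held 2207, 8998 and 7374. The ckmb fold changes ran from -0.32 in PrP BMD5/10 to -0.02 in MtP BMD5/50, and again each group's library numbered 1 was its lowest. They ran from -0.37 in MtP BMD5/10 to 0.01 in MtP BMD5/50 without the libraries numbered 1. Against the Control library of the same number, ckma was lower in 21 of 27 treated libraries and ckmb in 24 of 27. All these comparisons share the 3 Control libraries, so that their directions are not independent.

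The mitochondrial forms and the brain form showed another distribution. For ckmt2a, Control held 240, 232 and 213 CPM. MtP BMD5 held 535, 252 and 221, MtP BMD5/10 held 372, 283 and 275, and MtP BMD5/50 held 412, 337 and 261. The last 2 of these groups lay wholly above Control, while in MtP BMD5 the library numbered 3 lay between the Control values. EtP BMD5 was the only group with a mean below Control, at 196, 208 and 227 CPM. PrP BMD5/50 held 415, 219 and 203, so that 1 library lay far above Control and another below it.

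The fold change of ckmt2a was 0.56 in MtP BMD5 (95% interval -0.01 to 1.13, edgeR adjusted p = 1.0) and 0.56 in MtP BMD5/50 (-0.01 to 1.13, adjusted p = 1.0) on the log2 scale. In EtP BMD5 it was -0.12 (-0.69 to 0.46). Without the libraries numbered 1, the 9 fold changes of ckmt2a lay between -0.08 and 0.44, with 0.09 in MtP BMD5 and 0.44 in MtP BMD5/50. The gene sum of ckmt2a depends on a pair of transcripts: ckmt2a-202 and ckmt2a-204, which span the same interval, hold equal counts in all 30 libraries. Of 117148 reads listed for the gene, 70471 remain when ckmt2a-204 is left out, and the 2 values above are then 0.50 and 0.50.

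For ckmt1, Control held 133.6, 122.95 and 128.9 CPM, a narrow spread. EtP BMD5/10 held 157.6, 168.9 and 170.4 and EtP BMD5/50 held 154.8, 139.3 and 162.1, all above Control. MtP BMD5/10 (146.6, 135.9 and 141.6), MtP BMD5/50 (138.3, 157.8 and 140.02) and PrP BMD5 (138.7, 137.9 and 146.8) also lay above all 3 Control libraries, in each of these 3 groups by under 5 CPM between the nearest libraries. The other 4 groups overlapped with Control. The ckmt1 fold changes ran from 0.07 in MtP BMD5 to 0.37 in EtP BMD5/10, the latter with a 95% interval of 0.16 to 0.57 and an edgeR adjusted p of 0.999. Against libraries of the same number in Control, the 27 treated libraries lay between -0.02 and 0.46 on the log2 scale, 26 above and 1 below. These differences share the 3 Control libraries, so that their directions are not independent.

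**Figure D2:**
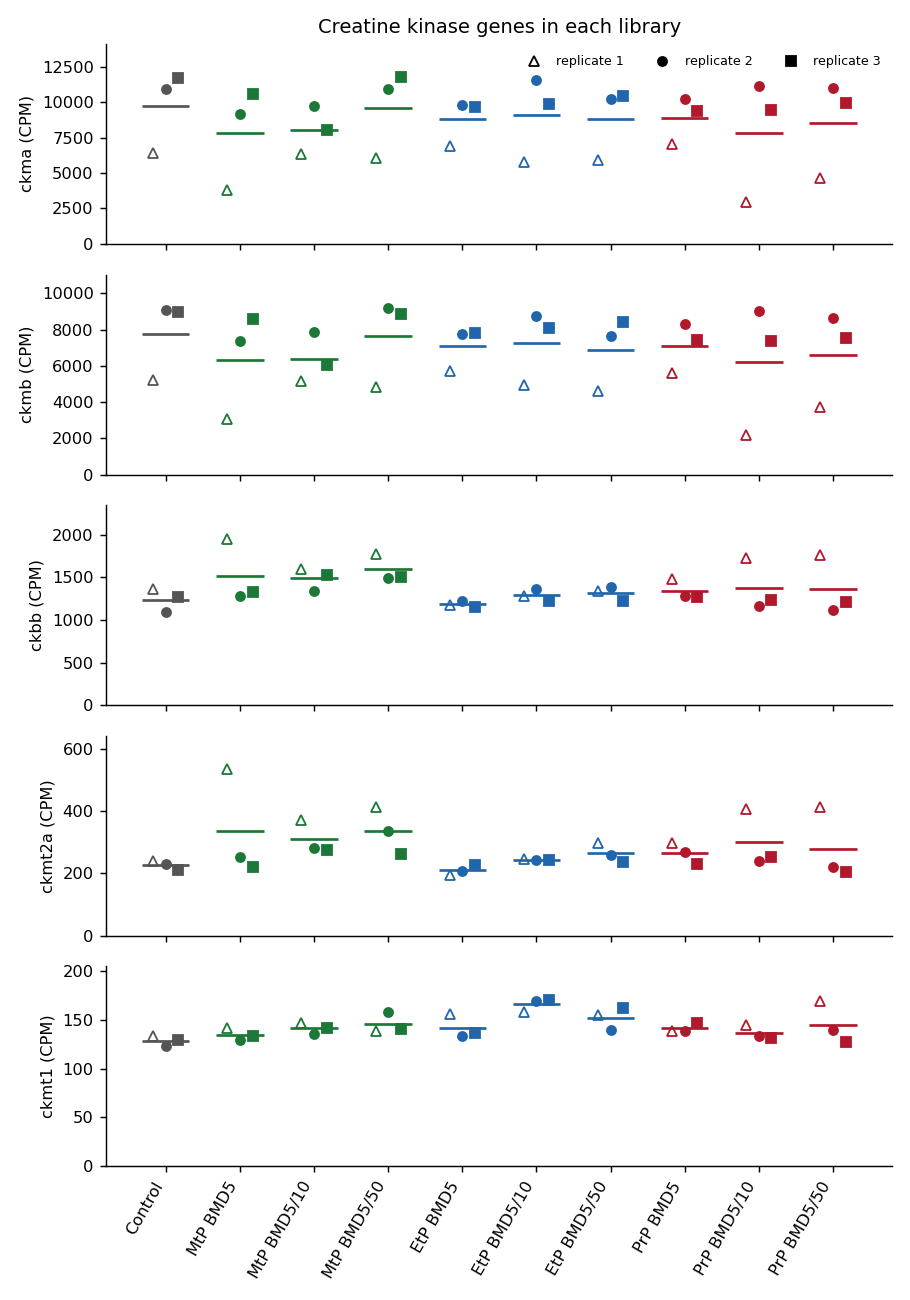
TMM-scaled CPM of each gene in every library, by group. Open triangles are replicate 1, circles replicate 2 and squares replicate 3, and bars are group means. Replicate 1 is the lowest library of ckma and ckmb in all 10 groups, while for ckmt2a it reaches 535 CPM in MtP BMD5 and 415 in PrP BMD5/50 against 213 to 240 in Control.

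Of the 36 values of ckma, ckmb, ckmt1 and ckmt2a against Control, edgeR called 0 at an adjusted p under 0.05 and DESeq2 called 0. The background was 0% of 18543 genes in each of the 9 comparisons, so the members did as the whole table did. Unadjusted p-values under 0.05 numbered 2, both of ckmt1, in EtP BMD5/10 and in EtP BMD5/50. Over all genes, 233 to 877 of 18543 had an unadjusted p under 0.05 in a comparison with Control (edgeR). When the libraries numbered 1 were left out, ckmt1 in EtP BMD5/10 was called, with a log2 fold change of 0.42 and an edgeR adjusted p of 0.0346. In that comparison 402 genes, or 2.17% of those tested, were then called. Setting all 3 libraries of a group against all 3 of Control, ckmt1 lay above in 5 of 9 groups and ckmt2a in 3, where between 2.13% and 6.8% of all genes did so in a group. That share is for a single group, and the groups share the same Control libraries, so their counts are not independent.

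**Figure D3:**
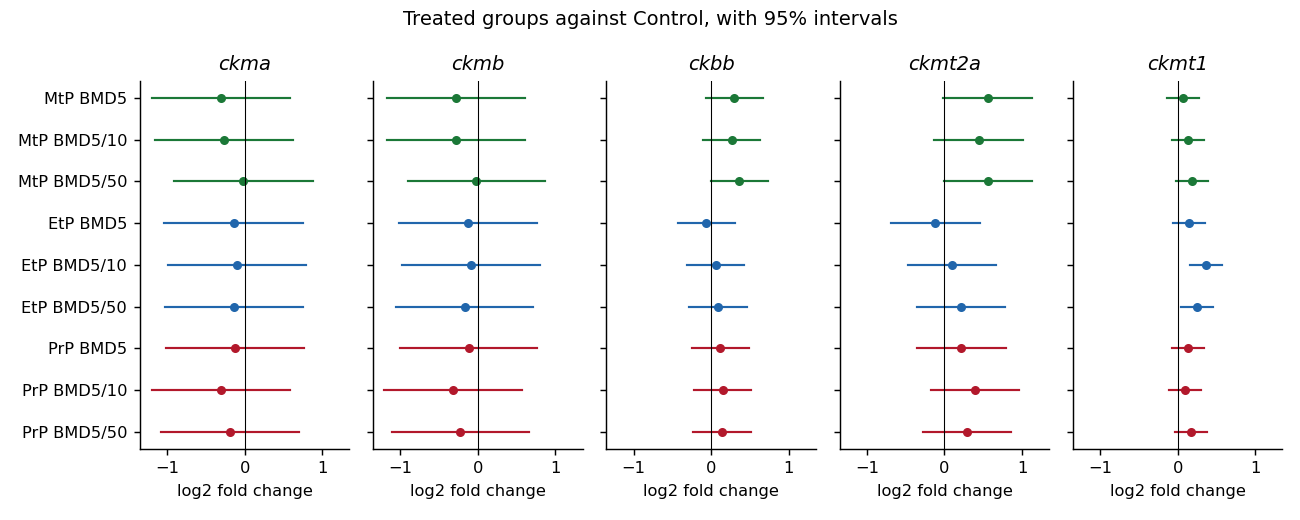
Log2 fold changes of the 5 genes in each treated group against Control, with 95% intervals from the quasi-likelihood fit. The fit had no term for the replicate number. The intervals of ckma and ckmb are the widest and those of ckmt1 the narrowest, and those of ckmt1 in EtP BMD5/10 and EtP BMD5/50 lie above 0 before adjustment. The values of ckbb are a description, since the gene was chosen on them.

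As a gene, ckbb held 1359, 1090 and 1267 CPM in the Control libraries. MtP BMD5/50 held 1779, 1495 and 1506 and was the only group wholly above Control. MtP BMD5 held 1957, 1281 and 1326, and EtP BMD5 held 1179, 1224 and 1152. Its log2 fold changes ran from -0.06 in EtP BMD5 to 0.36 in MtP BMD5/50. Over 98% of its reads were assigned to ckbb-201, its main protein-coding transcript, in each of the 30 libraries (98.2% to 99.1%), so the gene's values are in practice those of that transcript.

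The transcript for which ckbb was chosen is ckbb-204, a protein-coding model on the minus strand of chromosome 20, from 20817229 to 20821789, within the span of ckbb-201 (20816747 to 20821785) apart from its outer end. Its genome build was not given in the sources used here. The transcript carried 1.13% of the reads of ckbb, between 98 and 402 reads per library. How reads shared with the overlapping ckbb-201 were assigned was not given in the sources used here. The values of ckbb-204 depend on that assignment. The Control libraries held 7.57, 8.11 and 9.49 CPM. MtP BMD5 held 19.1, 16.5 and 11.03, MtP BMD5/10 held 17.5, 13.3 and 15.0, and MtP BMD5/50 held 20.9, 19.5 and 18.0. All of these exceed the highest Control library.

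EtP BMD5 held 13.3, 14.6 and 16.4 CPM of ckbb-204, EtP BMD5/10 held 14.1, 15.9 and 17.7, and EtP BMD5/50 held 17.8, 19.8 and 17.2. PrP BMD5 held 15.0, 16.7 and 15.7, PrP BMD5/10 held 18.5, 15.5 and 17.5, and PrP BMD5/50 held 16.2, 14.0 and 11.9. The 27 treated libraries thus ran from 11.03 to 20.9 CPM with a median of 16.4, and none reached down to the Control range. Of 26501 transcripts tested, 7 (0.0264%) had all 27 treated libraries above all 3 of Control. In MtP BMD5/50 and in EtP BMD5/50 edgeR called 1 of 26501 transcripts each (0.00377%), and it was ckbb-204. As that contrast chose the transcript, nothing is read from these counts.

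The log2 fold changes of ckbb-204 against Control lay between 0.74 in PrP BMD5/50 and 1.22 in MtP BMD5/50, with a median of 0.91. Of all transcripts tested, 186 (0.702%) had all 9 fold changes at or above 0.74, the 9 values sharing 1 set of controls. As 0.74 is the lowest value of ckbb-204 itself, which was chosen on this contrast, nothing is read from this count. Against the Control library of the same number, the differences were 0.80 to 1.45 for number 1, 0.70 to 1.27 for number 2 and 0.21 to 0.92 for number 3. Without the libraries numbered 1 all 9 fold changes were lower, with 0.64 in MtP BMD5, 1.103 in MtP BMD5/50 and 0.54 in PrP BMD5/50. Between number 1 and the others ckbb-204 was not called, with a difference of 0.07 ± 0.08 (SE, edgeR adjusted p = 0.527).

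As a share of ckbb reads, ckbb-204 took 0.558%, 0.743% and 0.749% in the Control libraries and 0.830% to 1.44% in the treated ones. The share of ckbb-201 was 99.0% to 99.1% in Control and 98.2% to 98.9% in the treated libraries. The other models were rare. The retained-intron transcripts ckbb-202, ckbb-206 and ckbb-208, the nonsense-mediated decay transcripts ckbb-203 and ckbb-205 and the protein-coding ckbb-207 had 160 to 559 reads over all libraries. Their fold changes ranged from -4.49 to 2.32, and at that depth no difference could be read from them.

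In the authors' deposited table, ckbb-204 was called in 3 of 9 groups, with log2 fold changes of 1.12 in EtP BMD5/50, 1.22 in MtP BMD5/50 and 1.03 in PrP BMD5/10. The authors' deposited table gives 0.93 for EtP BMD5/10, the nearest value that was not called, the call asking for a change of at least 1 and an unadjusted p under 0.05. Calls of higher transcripts in the authors' deposited table made up 1.15%, 0.356% and 0.42% of its 49474 rows with values in those 3 groups. The authors' deposited table also called ckbb-207 in EtP BMD5/50, a transcript with 15, 17 and 21 reads there and 3, 6 and 3 in Control. No transcript of ckma, ckmb, ckmt1 or ckmt2a was called in the authors' deposited table (0 calls).

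**Figure D4:**
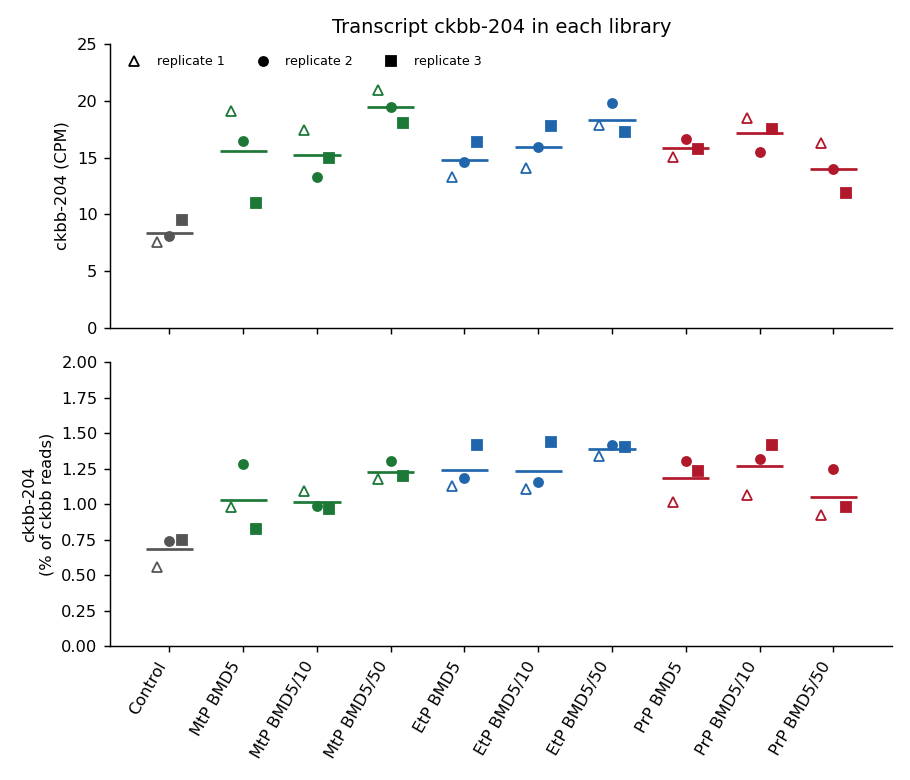
Transcript ckbb-204 in every library, in TMM-scaled CPM (upper panel) and as a percentage of all ckbb reads (lower panel). Symbols mark the replicate number and bars the group means. The 3 Control libraries lie at 7.57 to 9.49 CPM and at 0.558% to 0.749%, below the 27 treated libraries on both scales.

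Among the transcripts of the other genes, edgeR called 0 of 99 values against Control and DESeq2 called 0, with 8 at an unadjusted p under 0.05. These counts hold ckmt2a-202 and ckmt2a-204 separately although their reads are equal, so the 2 of ckmt2a-204 among the 8 repeat those of ckmt2a-202. Over all transcripts, 500 to 1193 of 26501 had an unadjusted p under 0.05 in a comparison with Control (edgeR). The ckmt1 reads came mainly from ckmt1-201 (96.2% over all libraries). This transcript lay above all Control libraries in 8 of 9 groups, where 2.37% to 6% of transcripts did so in a group. That share is for a single group, and the groups share the same Control libraries, so the 8 are not independent. The Control values of ckmt1-201 were 126.03, 120.04 and 125.5 CPM, and its fold changes ran from 0.08 to 0.35. The shorter ckmt1-202 (3.83%) held 7.50, 3.06 and 3.29 CPM in Control and 7.59, 7.78 and 7.55 in EtP BMD5/50, and ckmt1-203 had 0 reads in all 30 libraries, which allows up to 3 reads in each.

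Within ckmt2a, the short transcript ckmt2a-203, which covers the 3-prime part of the gene from 3127809 to 3129887 on chromosome 10, had another distribution than the transcript ckmt2a-202 that spans the gene. Control held 55.5, 53.9 and 55.8 CPM of ckmt2a-203, EtP BMD5 held 40.1, 35.1 and 33.2, and EtP BMD5/10 held 48.0, 41.4 and 31.2. Both of these EtP groups lay wholly below Control, while 2.8% to 4.71% of transcripts did so in a group. The remaining EtP group, EtP BMD5/50, ran from 32.7 to 61.7 CPM and overlapped with Control. The fold changes in EtP BMD5 and EtP BMD5/10 were -0.61 ± 0.37 (SE) and -0.45 ± 0.37, with an edgeR adjusted p of 1.0 for both. The authors' deposited table gives ckmt2a-203 in EtP BMD5 a q-value of 0.0142 and no call, as its change was under 1. Over the same groups ckmt2a-202 held 90.6, 87.7 and 75.0 CPM in Control, 77.0, 82.8 and 94.7 in EtP BMD5 and 97.1, 97.2 and 104.9 in EtP BMD5/10. It lay wholly above Control in 6 of 9 groups, where 2.37% to 6% of transcripts did so in a group. These groups share the same Control libraries. As a share of the gene's reads ckmt2a-203 took 23.2%, 23.2% and 26.3% in Control, and the treated libraries ran from 12.7% to 28.8% with a median of 17.5%. Against the Control library of the same number, ckmt2a-203 was lower in 18 of 27 treated libraries and higher in 9. How reads shared with the overlapping ckmt2a-202 were assigned was not given in the sources used here, and the values of ckmt2a-203 depend on it.

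The reads of ckmb were divided between 2 protein-coding transcripts in very unequal ways. The full-length ckmb-201 took 50.6% to 99.8% of them and the shorter ckmb-204 took 0% to 49.3%. In the libraries numbered 1, ckmb-204 took 20.4% to 49.3% (median 37.6%), and in the others 0% to 23.9% (median 9.12%). In EtP BMD5 it held 20184 reads in the library numbered 1 and 0 in both others, and in PrP BMD5/10 the library numbered 2 also held 0. The assignment of reads shared by overlapping transcripts was not given in the sources used here, and ckmb is best read as a gene.

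**Figure D5:**
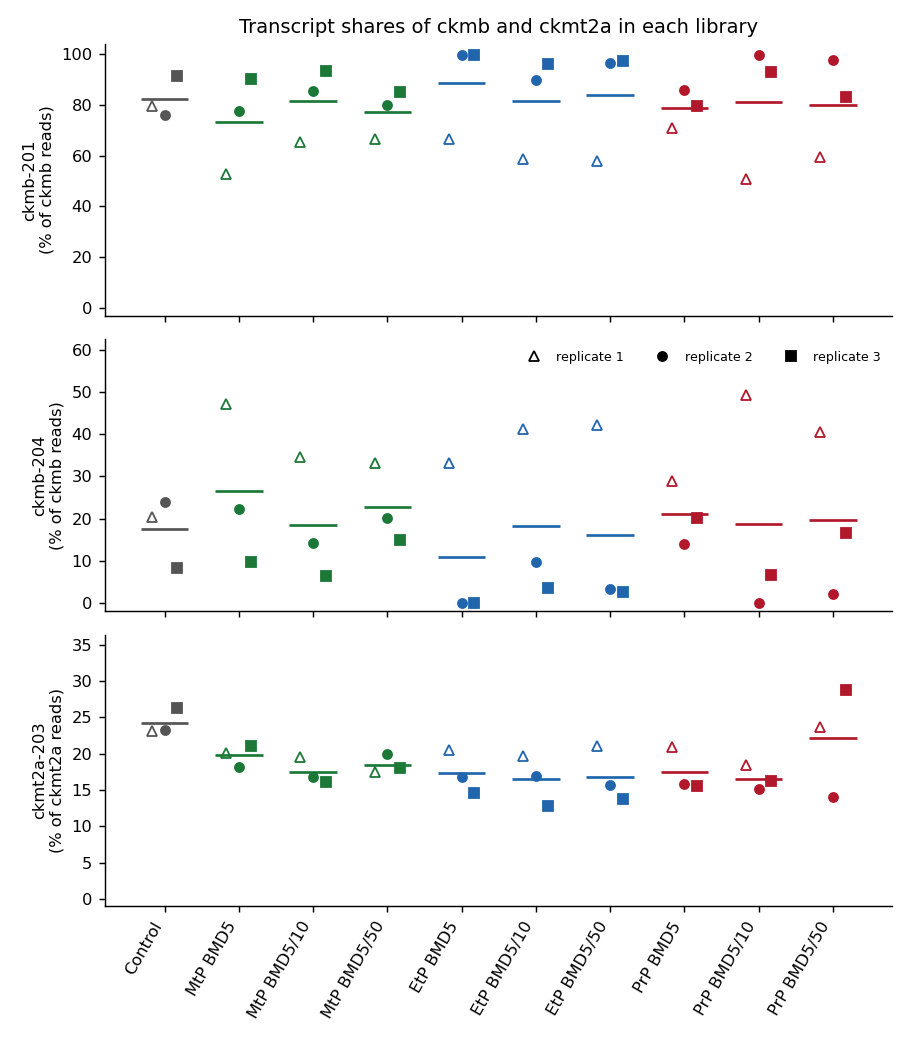
Percentage of a gene's reads assigned to ckmb-201, ckmb-204 and ckmt2a-203 in every library, by group, with symbols for the replicate number and bars for group means. The libraries numbered 1 have the lowest ckmb-201 share in 9 of the 10 groups, and ckmb-204 is at 0% in 3 libraries. For ckmt2a-203 the Control libraries lie at 23.2% to 26.3%.

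Compounds were next compared at matched labels, 9 comparisons for each of the 5 genes. Of these 45 values edgeR called 0 and DESeq2 called 0, where the background was 0% of genes in each comparison. Unadjusted p-values under 0.05 numbered 3, where 225 to 1296 of 18543 genes had one in a comparison (edgeR). With all libraries the largest difference was that of ckmt2a at BMD5, where EtP was lower than MtP with a log2 fold change of -0.68 (95% interval -1.25 to -0.10, edgeR adjusted p = 0.920). There the EtP libraries held 196, 208 and 227 CPM and the MtP libraries 535, 252 and 221, with an overlap. Without the libraries numbered 1, of which that of MtP held the 535 CPM, this difference was -0.14 (adjusted p = 0.658). The largest difference was then that of ckmt2a in PrP minus MtP at BMD5/50, at -0.51 (adjusted p = 0.322) against -0.27 with all libraries. For ckbb, EtP minus MtP at BMD5 was -0.36 (-0.73 to 0.01, adjusted p = 0.920), and -0.15 (adjusted p = 0.570) without the libraries numbered 1. The ends of the intervals of ckma and ckmb between compounds lay between -1.12 and 1.08 in this fit, which has no term for the replicate number. Without the libraries numbered 1, these differences ran from -0.15 to 0.26 for ckma and from -0.19 to 0.27 for ckmb, and none was called.

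For ckbb-204 the compounds differed by -0.47 to 0.17 on the log2 scale at matched labels. The lowest value was PrP minus MtP at BMD5/50 (95% interval -0.81 to -0.14, edgeR adjusted p = 1.0), where PrP held 16.2, 14.0 and 11.9 CPM and MtP 20.9, 19.5 and 18.0. Between the labels BMD5 and BMD5/50 of 1 compound, ckbb-204 differed by -0.33 (-0.66 to 0.01) for MtP, -0.31 (-0.64 to 0.03) for EtP and 0.17 (-0.16 to 0.51) for PrP. These tests of ckbb-204 were chosen after its values were seen. Of the 15 gene values between the labels, edgeR called 0 and DESeq2 called 0, with 0 at an unadjusted p under 0.05. They ran from -0.33 for ckmt2a in EtP to 0.10 for ckmb in PrP.

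The replicate number went with differences in 4 of the 5 genes. Libraries numbered 1 were lower in ckma by a log2 difference of -0.90 ± 0.10 (SE, edgeR adjusted p = 1.13e-07) and in ckmb by -0.88 ± 0.10 (adjusted p = 3.35e-07), in 10 of 10 groups each. They were higher in ckmt2a by 0.44 ± 0.09 (adjusted p = 0.000245, 9 of 10 groups) and in ckbb by 0.26 ± 0.06 (adjusted p = 0.000652, 8 of 10 groups). These 2 differences were uneven between groups. For ckmt2a they ran from -0.15 in EtP BMD5 to 1.18 in MtP BMD5, with 0.11 in Control. For ckbb they ran from -0.02 in EtP BMD5/10 to 0.60 in PrP BMD5/50, with 0.21 in Control. The difference of ckmt1 was 0.08 ± 0.04 (adjusted p = 0.120, above 0 in 7 of 10 groups). The background was 27.4% of genes called higher and 29% called lower.

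Within ckmb, ckmb-201 stood at -1.39 ± 0.15 (edgeR adjusted p = 6.65e-07) in number 1 and ckmb-204 at 1.704 ± 0.84 (adjusted p = 0.115). The retained-intron ckmb-202 (-1.40 ± 0.23, adjusted p = 6.58e-05) and ckmb-203 (-0.96 ± 0.32, adjusted p = 0.0213) were lower too. With the assignment of reads between overlapping transcripts unknown, the gene's difference is not credited to any single transcript. Within ckmt2a, ckmt2a-203 was higher in number 1 by 0.65 ± 0.11 (edgeR adjusted p = 6.52e-05). So was ckmt2a-202, which spans the gene and equals ckmt2a-204 in counts, by 0.42 ± 0.10 (adjusted p = 0.00202). The transcript ckmt2a-201, of the same span, was lower by -1.82 ± 0.30 (adjusted p = 5.10e-05). It held only 2007 reads over all libraries. The background for transcripts was 40.5% called, 19% higher and 21.6% lower.

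Tissue markers moved along the same axis. Over all genes, 27.4% were called higher and 29% lower in number 1. All 32 tested fast muscle genes were called lower in number 1, with a median of -1.07 where the median of all genes was 0.03. Among them were the myosin light chain mylpfa (-0.72), the myosin heavy chain myhz2 (-1.34), the troponin T gene tnnt3b (-0.89), the actinin actn3b (-1.18) and the parvalbumin pvalb1 (-0.57). Their summed level was 50974 to 121024 CPM in number 1 and 142227 to 214882 in the others. Of the photoreceptor genes 15 of 23 were called higher and 0 lower, with a median of 0.26, and of the neuronal genes 18 of 24 higher and 3 lower, with a median of 0.28.

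Rod opsin rho stood at 0.22, the rod transducin subunit gnat1 at 0.35 and the arrestin arr3a of cones at 0.65, while the cone transducin subunit gnat2 (0.16) was not called. Slow muscle (11 of 12 lower), heart (13 of 13), epidermis (21 of 21), liver (16 of 16) and exocrine pancreas genes (18 of 18) were called lower too, liver with a median of -2.41. That liver difference was not seen in the summed level of Control. There number 1 held 613 CPM, between the others at 581 and 735. Over all groups number 1 held 196 to 613 CPM and the others 581 to 5123. The heart genes nppa and myl7 were near 0 CPM in most libraries. The part of tissue composition in the creatine kinase values was not tested.

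Against Control the same lists gave 0 calls. The medians of the fast muscle genes lay between -0.36 in MtP BMD5 and -0.06 in EtP BMD5, and those of the photoreceptor genes between 0.07 in EtP BMD5 and 0.47 in PrP BMD5/10. The medians of all genes lay between -0.00276 and 0.0140. The neuronal list, at -0.02 to 0.13, stayed closer to the median of all genes. Other lists had wider ranges, with medians of 0.19 to 3.21 for exocrine pancreas, -0.12 to 2.36 for liver, -0.15 to 1.19 for heart and -0.62 to 0.05 for epidermis genes. The highest medians of pancreas, liver and heart were those of EtP BMD5/10, the group in which ckmt1 was highest. There the summed liver level was 248, 4810 and 5123 CPM in the 3 libraries, against 581 to 735 in Control. The summed heart level overlapped with Control, at 983, 1930 and 2173 CPM from lowest to highest against 1169 to 2051. The heart median is thus no measure of the summed heart level. The part of these tissues in the ckmt1 value was not tested. In MtP BMD5, where ckmt2a stood at 0.56 and ckma at -0.30, the photoreceptor list had a median of 0.40 with 23 of 23 genes above 0, and the fast muscle list -0.36 with 30 of 32 below 0. Single libraries stood out there, the summed photoreceptor level being 15194, 17893 and 27006 CPM from lowest to highest and that of fast muscle 60929, 152400 and 185420. In that group ckmt2a stood at 0.09 and ckma at -0.20 without the libraries numbered 1.

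Most other genes of creatine metabolism were lower in number 1, as ckma and ckmb were. Of 8 listed genes 5 were in the table, and all 5 were tested. These were ckba (also named after the cytosolic brain form), ckmt2b (also named after the sarcomeric form), gatm and gamt (the 2 steps of creatine synthesis) and slc6a8 (the creatine transporter). None was called against Control (0 of 5 in each of the 9 comparisons, with medians of -0.17 to 0.22). In number 1, 4 of 5 were called lower, where 29% of all genes were. The values were -1.19 ± 0.14 (SE) for ckba, -1.03 ± 0.09 for gatm, -0.98 ± 0.09 for gamt and -0.87 ± 0.08 for ckmt2b, and -0.40 ± 0.35 for slc6a8, which had 259 reads in all.

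Genes that share a name thus stood on opposite sides, ckba and ckmt2b being lower in number 1 and ckbb and ckmt2a higher. The names do not show in which tissues of these larvae the genes were expressed. In Control ckba held 17.5 ± 4.32 CPM and ckmt2b 431 ± 122.96 (SD, n = 3). The largest ckba value against Control was 1.09 in EtP BMD5/10, with a 95% interval of -0.08 to 2.25.

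The carriers that pass ATP out of the mitochondrion to the kinases were mixed. Of the 14 tested genes of mitochondrial partners, 3 were called higher and 7 lower in number 1, with a median of -0.13. Over all genes 27.4% were called higher and 29% lower, the shares against which the counts of these lists are to be read. The ADP/ATP carrier of muscle slc25a4 stood at -1.18 and slc25a5 at -0.44, slc25a6 at 0.33 (not called), and the outer membrane channels at 0.18 for vdac1, -0.77 for vdac2 and -0.31 for vdac3. Among adenylate kinase and purine nucleotide genes 8 of 19 were called lower and 3 higher, with ak1 at -0.45 among the lower and ak5, an adenylate kinase of brain in mammals, at 0.30 among the higher. Among glycolytic genes 17 of 26 were called lower and 6 higher, with the muscle glycogen phosphorylases pygma at -1.44 and pygmb at 0.28.

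Across libraries ckma varied with ckmb, and ckbb with ckmt2a. Because number 1 stands apart, correlations of log2 CPM are given as a description within the 10 libraries numbered 1 and within the 20 others. Pearson's r of ckma with ckmb was 0.995 and 0.939. That of ckbb with ckmt2a was 0.977 and 0.660. That of ckma with ckmt2a was -0.66 and -0.13, and ckmt1 was not closely tied to any other member (-0.19 to 0.34 over its 8 values). Values of a library share its depth and its scaling.

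The genes most like each member were found by Pearson's r of log2 CPM over all 30 libraries among the 18543 tested genes. For ckma they were ckmb (0.995), the tropomyosin tpma (0.992) and the myosin binding protein mybphb (0.990), and for ckmb they were ckma, tpma (0.986) and mybphb (0.985). For ckbb they were unc119b (0.946), whose mammalian counterpart carries lipid-modified proteins in photoreceptors, rbp4l (0.933), of the retinol binding protein family, and gpat4 (0.916), an enzyme of glycerolipid synthesis. For ckmt2a they were slc25a3a (0.922), a mitochondrial phosphate carrier, ckbb (0.909) and the synaptotagmin syt5a (0.906).

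With the mean of each replicate number removed, unc119b and ckbb still had 0.918 and slc25a3a and ckmt2a 0.926. Within the libraries numbered 1 and within the others, the former pair had 0.961 and 0.851 and the latter 0.962 and 0.647. For ckmt1 the highest values were lower, at 0.676 for the coatomer subunit copb2, 0.666 for rab42a and 0.652 for the neuronal pentraxin receptor nptxrb. The value of copb2 was -0.14 within the libraries numbered 1 and 0.798 within the others.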

How the data were processed

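RNA-seq of whole zebrafish larvae gave 30 libraries in 10 groups of 3, grouped and numbered by their titles, the table's columns named PP being those of propylparaben. The deposited table gives whole-number read counts by transcript, per the file headers, with RPKM and TPM values that the authors made for each library. It also holds, per the file headers, the authors' log2 fold change, p-value and q-value for each treated group against Control. Aligner, counter, genome build and the test behind those columns were not given in the sources used here.

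Counts were summed by symbol (31846 symbols; 29201 of 32520 gene IDs and all 5 members matched the name reference). No 2 libraries were identical (0 pairs). edgeR 4.0.16 (quasi-likelihood, TMM, filterByExpr at a minimum count of 10, R 4.3.3) was fitted to 18543 genes and to 26501 transcripts, all 30 libraries in 1 model, with Benjamini-Hochberg adjustment within each of 21 comparisons (9 against Control, 9 between compounds, 3 between labels). The filter kept all 5 genes and 19 of the 20 transcripts. Intervals are 95% from the quasi-likelihood F statistic; log2 CPM used a prior count of 2. TPM and RPKM served only for levels between genes. The edgeR fit was also run on simulated counts, with the same spread setting for all genes and no difference between replicate numbers. As these data differ on both points, that run does not show what the fit can resolve here. Alternatives were DESeq2 1.42.0, RLE scaling, no filter, a replicate block, fits of 2 groups, and left-out libraries.

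The labels do not say whether replicates came from separate clutches. The p-values then measure spread between libraries alone, and this may be technical. Counting intervals cover counting error only. Deviations of same-numbered libraries correlated above 0.1 in all 3 pairs in 14 of 21 comparisons, the rule for taking the numbers as pairs. The pairing comes from the numbers in the titles. The main fit has no term for these pairs, so its standard errors and intervals include differences between the numbers. Only the replicate block, an alternative, has such a term. The members, gene lists and tests were chosen with earlier results of these data known. Genes named are the members, listed genes in written order and the 3 most correlated with each member.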

Additional observations from a re-analysis of the deposited data

Results flagged for a closer look

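In 6 cases every library of one compound lay on one side of the Control mean and every library of another compound on the other side, at the same label. No share of all genes or transcripts is given beside this count, so nothing is read from the number of cases. Values are differences of mean log2 CPM, and the difference itself was tested with edgeR between the compounds, which called 0 of them.

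At BMD5, ckbb in EtP minus MtP was -0.33, from -0.06 in EtP and 0.27 in MtP (adjusted p of the tested difference 0.920). The MtP libraries held 1957, 1281 and 1326 CPM, and without the libraries numbered 1 edgeR gave -0.15 for the difference and 0.14 for MtP against Control. PrP minus EtP was 0.18 for ckbb (adjusted p = 1.0) and 0.33 for ckmt2a (adjusted p = 1.0), with EtP at -0.06 and -0.12. Without the libraries numbered 1 these were 0.12 for ckbb and 0.21 for ckmt2a. The main transcript ckbb-201 gave -0.33 for EtP minus MtP (adjusted p = 0.998) and 0.18 for PrP minus EtP (adjusted p = 1.0), values that repeat those of its gene. At BMD5/50, the retained-intron transcript ckbb-206 gave -0.90 for PrP minus MtP, from -0.38 and 0.53 (adjusted p = 1.0), on 8 to 38 reads per library.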

How the results depend on the processing

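The count of calls against Control was 0 of 36 under DESeq2, RLE scaling, no filter, fits of the 2 groups alone, each left-out library and ckmt2a-204 not counted, the last chosen after seeing the data. With a replicate block it was also 0, and the block changed no other call. Without all libraries numbered 1 it was 1, ckmt1 in EtP BMD5/10 (log2 fold change 0.42, adjusted p = 0.0346, against 0.37 and 0.999 with all). The calls between compounds and between labels, and those of transcripts other than ckbb, were 0 under every alternative run. The number 1 contrast gave 4 of 5 calls under DESeq2, RLE scaling, no filter, and against number 2 or number 3 alone; ckmt1 passed once, without replicate 2 of MtP BMD5/50 (0.10). With 1 library left out, its values ran from -0.95 to -0.81 for ckma, -0.93 to -0.78 for ckmb, 0.35 to 0.50 for ckmt2a and 0.22 to 0.29 for ckbb. The order by TPM was the same 5 of 5 in RPKM and without number 1, each with all transcripts of ckmt2a summed. The fold changes of ckbb-204 lay between 0.54 and 1.32 over all settings. No called value changed sign. Standard errors near 0.43 for ckma and ckmb limit what the main fit can resolve. That fit has no term for the replicate number, with which both genes differed. The ckbb transcripts other than ckbb-201 and ckbb-204 have too few reads to compare.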
